A study of Mus musculus with 28 samples.

Results

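The BAF complex is the mammalian SWI/SNF chromatin remodeller, and 10 genes for its exchangeable subunits were followed through the nuclear RNA of mouse motor cortex: Smarca2, Smarca4, Actl6a, Actl6b, Arid1a, Arid1b, Smarcc1, Smarcc2, Dpf1 and Dpf3. Members were found by gene symbol, and all 10 of them were present among the 41549 genes of the deposited count tables. The study set adeno-associated virus (AAV) vectors that carry the nuclease Cas9 against microRNA miR-124 in the living brain, and its libraries came from 7 mice, numbered 17 to 23. Every mouse received AAV-Cas9-miR-124-empty, called empty here, in the left motor cortex and AAV-Cas9-miR-124-g4, called g4 here, in the right. Nuclei of tissue fixed in 1% PFA were sorted by an antibody to the HA tag into HA-positive nuclei, listed as Cas9 positive, and HA-negative nuclei. Each vector with each sorted fraction made 4 groups of 7 libraries, 28 in all, 1 of each group per mouse. All groups came from injected hemispheres, so there was no uninjected control, and since empty was always left and g4 always right, the vector and the hemisphere cannot be told apart. The labels give no strain, age or sex of the mice, no promoter for Cas9, and no meaning for g4.

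BAF complexes use ATP to move nucleosomes, and each complex takes 1 member of several paralog pairs. Smarca2 (BRM) and Smarca4 (BRG1) are the alternative ATPases. Actl6a (BAF53a) and Actl6b (BAF53b) are actin-related subunits, and Smarcc1 (BAF155) and Smarcc2 (BAF170) form the scaffold. Arid1a and Arid1b are the large subunits of the canonical complex, and Dpf1 (BAF45b) and Dpf3 (BAF45c) are PHD finger subunits. As neural progenitors become neurons, Actl6a is replaced by Actl6b, and Dpf1 and Dpf3 enter the complex. In that switch, miR-124 together with miR-9* (now named miR-9-3p) represses Actl6a through its 3' untranslated region (3' UTR). The question put to these data was how the subunits stood in the nuclei that received either vector.

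The sequences shown are some of the places in the members' longest annotated 3' UTRs (GENCODE M21, build GRCm38) whose letters pair with the seed of either microRNA. They were searched on the transcript strand only. The 7 bases GTGCCTT, complementary to bases 2 to 8 of miR-124, were in the 3' UTR of 0 of 10 members and in 12.84% of 20908 annotated 3' UTRs. TGCCTTA, which overlaps it by 6 bases, was in 0 of 10 members and in 11.43% of all 3' UTRs. No match says only that these letters are not in this window. The shorter TGCCTT, contained in both, was in Smarca4, Smarcc1 and Dpf3 and in 42.87% of all 3' UTRs. AGCTTTA, complementary to bases 2 to 8 of miR-9-3p, was in Actl6a, Smarca2 and Smarcc1 and in 11.32% of all 3' UTRs. Actl6a has a short 3' UTR of 371 bases, and of the 1777 3' UTRs within 20% of that length 2.364% held AGCTTTA. A match is a description of letters, not a site shown to be used. The mature miR-9-3p is given from RefSeq (GRCm38.p6) with its seed in capitals, and in the sites below it the capitals mark the matched bases. Shown are the Actl6a and Smarca2 sites, at bases 38 to 44 and 132 to 138 of their 3' UTRs, and the 2 Smarca4 sites. They were picked as sites of the Actl6 switch and of the ATPases, and the matches in Smarcc1 and Dpf3 are not shown.
mmu-miR-9-3p: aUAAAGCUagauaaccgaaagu
Actl6a, AGCTTTA: aacgtctgtAGCTTTAgtacactca
Smarca2, AGCTTTA: tctagaactAGCTTTAgggtagtgc
Smarca4, TGCCTT, bases 501 to 506: caaagtactTGCCTTgccaggtgt
Smarca4, TGCCTT, bases 1255 to 1260: agtaggactTGCCTTgg

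Library totals ran from 248612 to 902944 counts and detected genes from 8687 to 13668 per library. In 4 libraries, all HA-positive, fewer than 10000 genes were detected: empty animals 17, 21 and 22 and g4 animal 18. The g4 HA-positive library of animal 19 stood apart. It held both Xist (591 counts) and transcripts of 4 Y-linked genes (44 counts), whereas the other 3 libraries of that animal held 0 Xist counts. Whether it holds nuclei of more than 1 mouse was not tested, and where animals are counted its values stand for animal 19. Its summed oligodendrocyte markers were 1270 CPM (counts scaled to library size, with TMM factors) against at most 187 CPM in the other g4 HA-positive libraries. Results were also computed without these libraries. Sorting went with cell-type markers. The 8 inhibitory neuron markers summed to 2023 ± 326 CPM (SD, n = 7) in empty HA-positive and 699 ± 81.3 CPM in empty HA-negative libraries, and the 7 oligodendrocyte markers to 72.8 ± 26.0 and 1434 ± 262 CPM. Of the microglia markers, Cx3cr1, P2ry12 and C1qa had no count in any empty HA-positive library. In such bulk libraries, fewer cells of a type and less RNA per cell cannot be told apart.

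Levels were divided by the joined length of all annotated exons of a gene, and whether counts rise with that length was not tested. In plain CPM Smarca2 had the highest mean of the members, 239 CPM, against 160 for Smarcc2 and 121 for Smarca4. Per kilobase of exon, the scaffold gene Smarcc2 had the highest mean level, 28.8 ± 6.55 CPM per kb (SD, n = 28). The ATPases followed, Smarca4 at 18.8 ± 4.88 and Smarca2 at 16.7 ± 3.78 CPM per kb. The place of the ATPases relative to each other was not settled, since Smarca4 exceeded Smarca2 in 15 of 28 libraries. Smarcc2 was above Smarca4 in 26 of 28 libraries, and Smarca2 was above Arid1a (12.2 ± 3.41 CPM per kb) in 24. Smarcc1 stood at 9.43 ± 3.03 and Arid1b at 7.34 ± 1.82 CPM per kb, and each lay below the gene before it in 21 of 28 libraries. A gap followed, with Arid1b above Dpf1 in 27 of 28 libraries. Dpf1 at 3.25 ± 1.75 and Actl6b at 3.24 ± 1.99 CPM per kb did not differ beyond their spread, with Dpf1 higher in 15 libraries. Actl6a was at 1.90 ± 2.78 CPM per kb and Dpf3, the lowest, at 0.510 ± 0.879 CPM per kb.

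**Figure D1:**
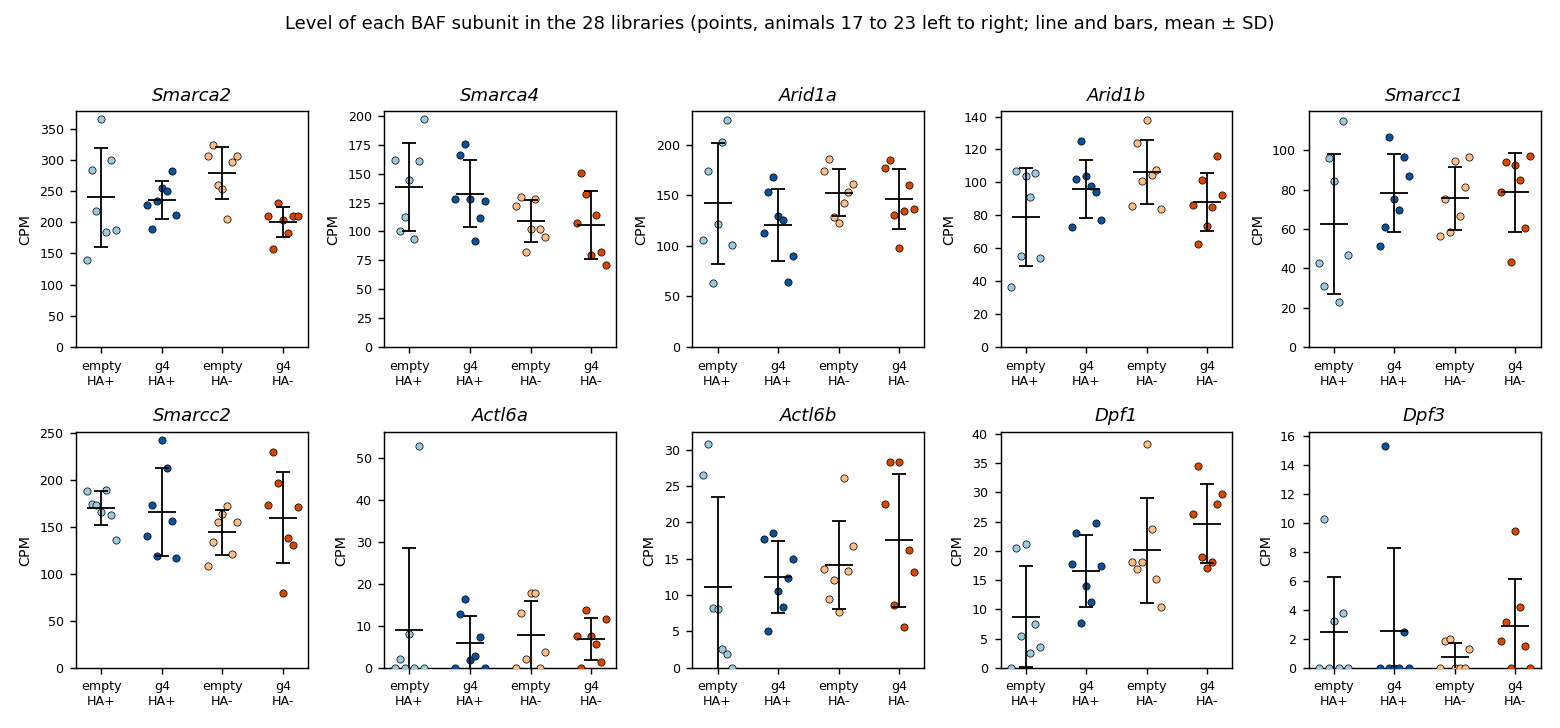
CPM of each member (vertical axes from 0, own scale per gene) in the 7 libraries of each group, with points in the order of animals 17 to 23 and mean ± SD. Smarca2 in HA-negative nuclei averaged 279 CPM with empty and 201 CPM with g4, and Actl6a rests on few counts, with 1 empty HA-positive library at 52.9 CPM.

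The ATPase Smarca2 (chr19:26605050-26778322, plus strand, 14269 exon bases) had the most counts of the members, 3602 over the 28 libraries. In empty HA-negative libraries its level ran from 206 to 323 CPM with a median of 297 CPM. In g4 HA-negative libraries it ran from 157 to 231 CPM with a median of 209 CPM. All 7 animals had less Smarca2 on the g4 side. The groups overlapped through animal 21 alone, whose empty library was the lowest of its group at 206 CPM, while the other empty libraries, from 253 CPM upward, exceeded every g4 library. In HA-positive nuclei the levels ran from 139 to 366 CPM with empty (median 217) and from 189 to 283 CPM with g4 (median 233). There the groups overlapped almost wholly, and the empty group had the wider spread.

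**Figure D2:**
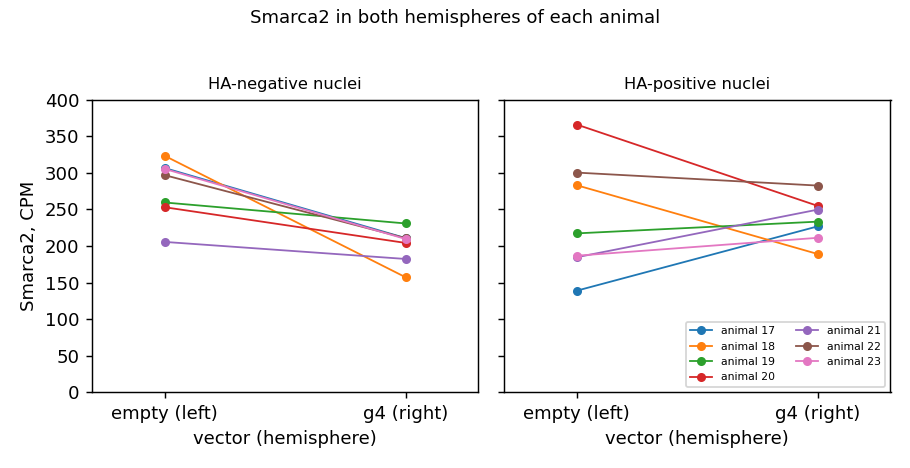
Smarca2 level in CPM (vertical axis from 0) with the empty vector (left hemisphere) and the g4 vector (right hemisphere), 1 line per animal, in HA-negative and HA-positive nuclei. In HA-negative nuclei all 7 lines go down, and in HA-positive nuclei 4 of 7 go up.

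Smarca4 (chr9:21616169-21704230, plus strand, 6475 exon bases) lay between 93.6 and 197 CPM with a median of 145 CPM in empty HA-positive libraries and between 92.1 and 176 CPM with a median of 128 CPM in g4 HA-positive libraries. In HA-negative nuclei it lay between 82.5 and 130 CPM with empty (median 102) and between 70.9 and 151 CPM with g4 (median 107). Its means were higher in HA-positive nuclei with either vector, and the groups overlapped.

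Actl6a (chr3:32706298-32726973, plus strand, 3886 exon bases) gave 121 counts over all 28 libraries and 0 counts in 9 of them. In empty HA-positive libraries it ran from 0 to 52.9 CPM with a median of 0, and 28 of the 34 counts in that group came from animal 22. In g4 HA-positive libraries it ran from 0 to 16.4 CPM with a median of 2.79 CPM, from 26 counts. In HA-negative nuclei the range was 0 to 17.9 CPM with empty (median 3.87) and 0 to 13.8 CPM with g4 (median 7.52). All 4 ranges began at 0 and overlapped. A count of 0 still allows up to 3 counts, which is 5.67 CPM in the empty HA-negative library of animal 22 and 10.8 CPM in the empty HA-positive library of animal 23. Of the Actl6a exons, 452 bases overlap Mrpl47 on the opposite strand. Mrpl47 had 144 counts in all, and without a known strand setting the reads there may belong to either gene.

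Actl6b (chr5:137553517-137569582, plus strand, 4267 exon bases), the neuronal counterpart, gave 210 counts and was at 0 in 1 library. It ran from 0 to 30.8 CPM with a median of 8.14 CPM in empty HA-positive, and from 5.11 to 18.5 CPM with a median of 12.4 CPM in g4 HA-positive libraries. In HA-negative nuclei it ran from 7.67 to 26.1 CPM with empty (median 13.2) and from 5.56 to 28.3 CPM with g4 (median 16.2). The empty HA-positive group was the most scattered, and all groups overlapped.

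The scaffold genes passed the low-count filter in every comparison. Smarcc1 (chr9:110117708-110240178, plus strand, 7832 exon bases, 123 of them overlapping Dhx30 on the opposite strand) ran from 22.8 to 115 CPM over the 28 libraries. Dhx30 had 874 counts in all, and without a known strand setting the reads in the overlap may belong to either gene. Smarcc2 (chr10:128459248-128490482, plus strand, 5552 exon bases) ran from 79.4 to 242 CPM. Smarcc1 was most variable in the empty HA-positive group, at 62.8 ± 35.7 CPM, with means of 75.6 to 78.8 CPM in the other groups. Its counts in empty HA-positive libraries were low, from 9 to 61 with a median of 15. Smarcc2 was least variable in the empty HA-positive group, at 170 ± 18.0 CPM.

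Of the canonical large subunits, Arid1a (chr4:133679008-133756769, minus strand, 11476 exon bases) ran from 63.3 to 225 CPM and Arid1b (chr17:4994332-5347656, plus strand, 12600 exon bases) from 36.4 to 138 CPM over the 28 libraries. Arid1b averaged 79.0 ± 29.7 CPM in empty HA-positive, 96.2 ± 17.6 in g4 HA-positive, 106 ± 19.5 in empty HA-negative and 88.3 ± 17.6 CPM in g4 HA-negative libraries. Arid1a averaged 142 ± 59.4, 120 ± 35.6, 153 ± 23.1 and 146 ± 30.0 CPM in the same order. Both genes were most scattered in the empty HA-positive group.

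The neuronal PHD finger subunit Dpf1 (chr7:29303951-29318243, plus strand, 5376 exon bases) ran from 0 to 21.2 CPM with a median of 5.50 CPM in empty HA-positive libraries. It ran from 7.63 to 24.8 CPM (median 17.4) in g4 HA-positive libraries. In HA-negative nuclei it ran from 10.3 to 38.3 CPM with empty (median 18.0) and from 17.0 to 34.5 CPM with g4 (median 26.3). The empty HA-positive group was the lowest, with 5 of its 7 libraries below the lowest empty HA-negative library. Dpf3 (chr12:83213745-83487716, minus strand, 4225 exon bases) gave 30 counts in all and 0 in 15 of 28 libraries, which limits any statement on it.

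With g4 against empty in HA-positive nuclei, the nuclei listed as carrying Cas9, no member passed the test. Of the 10 members, 6 had enough counts to be tested, and edgeR's quasi-likelihood test called 0 of them at an adjusted p under 0.05, against 0.0599% of the 5011 genes tested. DESeq2 and limma voom also called 0 of them, and 0 had an unadjusted p under 0.05, which 6.69% of all genes had. The log2 fold changes lay between -0.30 ± 0.25 (SE) for Arid1a and 0.25 ± 0.31 for Smarcc1, with 2 of 6 above 0 and a median of -0.09 beside -0.01 over all genes. For Smarca2 the value was -0.09 ± 0.17, and its 95% interval corresponds to 0.738 to 1.20 times the empty level. The interval was 0.688 to 1.24 times for Smarca4 and widest for Smarcc1, from 0.765 to 1.84 times.

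The members outside that fit were compared by an exact two-sided permutation test of the mean CPM over 3432 splits, 14 such tests in all comparisons together. Actl6a averaged 5.87 ± 6.52 CPM (SD, n = 7) with g4 and 9.01 ± 19.6 CPM with empty in HA-positive nuclei (exact permutation p = 0.918), and was higher with g4 in 3 of 7 animals. Without animal 22, whose empty library held most of its counts, the difference turned to 3.91 CPM higher with g4. Without the libraries under 10000 genes it was 2.18 CPM higher with g4. Actl6b averaged 12.5 ± 4.92 CPM with g4 and 11.1 ± 12.4 CPM with empty (exact permutation p = 0.786), and its direction also turned when animal 19, 22 or 23 was left out. For the Actl6 pair, then, the direction of the g4 difference rests on single animals. Dpf1 averaged 16.5 ± 6.14 CPM with g4 and 8.69 ± 8.62 CPM with empty and was higher in 6 of 7 animals. Its exact permutation p was 0.074, or 0.468 adjusted over the 14 tests. Without the libraries under 10000 genes the difference was 2.78 in place of 7.85 CPM. The raw exact permutation p ran from 0.0303 to 0.182 with an animal left out. It was under 0.05 only without animal 18 (0.0498) or animal 20 (0.0303), and without the g4 library of animal 19 alone (0.0449). Paired by animal with exact sign flips, p was 0.0781. Dpf3 had 7 counts with g4 and 9 with empty.

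Cell-type markers had other levels in these groups as well. With g4 against empty in HA-positive nuclei, 6 of 7 tested excitatory neuron markers were above 0 (median log2 fold change 0.59), with sums of 575 to 1114 CPM over the 10 markers in empty and 768 to 1302 CPM in g4 libraries. Of the 8 inhibitory neuron markers 7 were below 0 (median -0.27), with sums of 1515 to 2592 and 1131 to 2339 CPM. The 4 tested of 6 astrocyte markers were above 0 (median 0.63), with sums of 583 to 1181 and 901 to 2193 CPM. The astrocyte glutamate transporter gene Slc1a2 had higher values in all 7 animals (0.65 ± 0.18, edgeR adjusted p = 0.364), and the GABA synthesis gene Gad2 lower in 7 of 7 (-0.66, adjusted p = 0.162). No marker of these lists was called. The part of cell types in the Dpf1 and other member values was not tested.

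In HA-negative nuclei, g4 against empty called 0 of 7 tested members by edgeR, DESeq2 or limma voom, against 0.0% of the 6262 genes tested by edgeR, where no gene passed. Smarca2 came nearest. It averaged 201 ± 24.0 CPM with g4 and 279 ± 41.2 CPM with empty, a log2 fold change of -0.48 ± 0.13 (95% interval -0.73 to -0.23), lower in 7 of 7 animals. Its unadjusted p was 0.000374, and only 1 of the 6262 genes had a smaller p, but the adjusted p of edgeR was 0.999 (0.387 to 1.0 over the alternatives, 0.656 when blocked by animal). It thus fails the correction for all genes tested. It was the only member with an unadjusted p under 0.05, beside 3.77% of all genes.

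The other 6 members tested in HA-negative nuclei lay between -0.26 ± 0.18 for Arid1b and 0.29 ± 0.36 for Dpf1. Actl6a averaged 6.78 ± 4.97 CPM with g4 and 7.82 ± 8.18 CPM with empty (exact permutation p = 0.765, higher with g4 in 4 of 7 animals). Actl6b averaged 17.5 ± 9.14 and 14.1 ± 6.07 CPM (exact permutation p = 0.419). Neither differed beyond the spread between animals. Dpf3 had 11 counts with g4 and 3 with empty (exact permutation p = 0.100, adjusted over the 14 tests p = 0.468, paired by animal p = 0.203, and 0.0325 to 0.286 with an animal left out). Some glial markers had higher values with g4 as well: 5 of 5 tested microglia markers (median log2 fold change 0.37), with summed levels of 189 to 446 CPM in empty and 296 to 511 CPM in g4 libraries over the 6 markers, and 5 of 7 oligodendrocyte markers (summed, 959 to 1673 and 1194 to 2215 CPM). Above 0 were also the 4 tested astrocyte markers (median 0.09) and the 2 tested oligodendrocyte precursor markers (median 0.52). All 6 tested inhibitory neuron markers were below 0 (median -0.18), and of 9 tested excitatory neuron markers 4 were above and 5 below 0. None of these markers was called, and of the endothelial markers Cldn5 was at 0 in all empty HA-negative libraries. The part of these cells in the Smarca2 values was not tested.

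Whether g4 went with a different effect in HA-positive than in HA-negative nuclei was tested over all 28 libraries. EdgeR called 0 of 7 tested members, against 0.0% of 7197 genes. DESeq2 and limma voom called 0 as well, and 0 members had an unadjusted p under 0.05 (4.99% of all genes). For Smarca2 the effect was higher in HA-positive nuclei by 0.41 ± 0.21 in log2 (adjusted p = 0.979 by edgeR), with 6 of 7 animals above 0. So the lower Smarca2 values with g4 in HA-negative nuclei were not shown to be particular to those nuclei. Arid1b had 0.49 ± 0.30, also with 6 of 7 animals above 0 (adjusted p = 0.996 by edgeR). The median over the tested members was 0.22 beside 0.03 over all genes, and over these 7 members it was 0.11 without the g4 library of animal 19 and 0.055 without the libraries under 10000 genes. In both of those fits Actl6b also passed the low-count filter, and the median over 8 members was then -0.0020 and -0.0034.

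**Figure D3:**
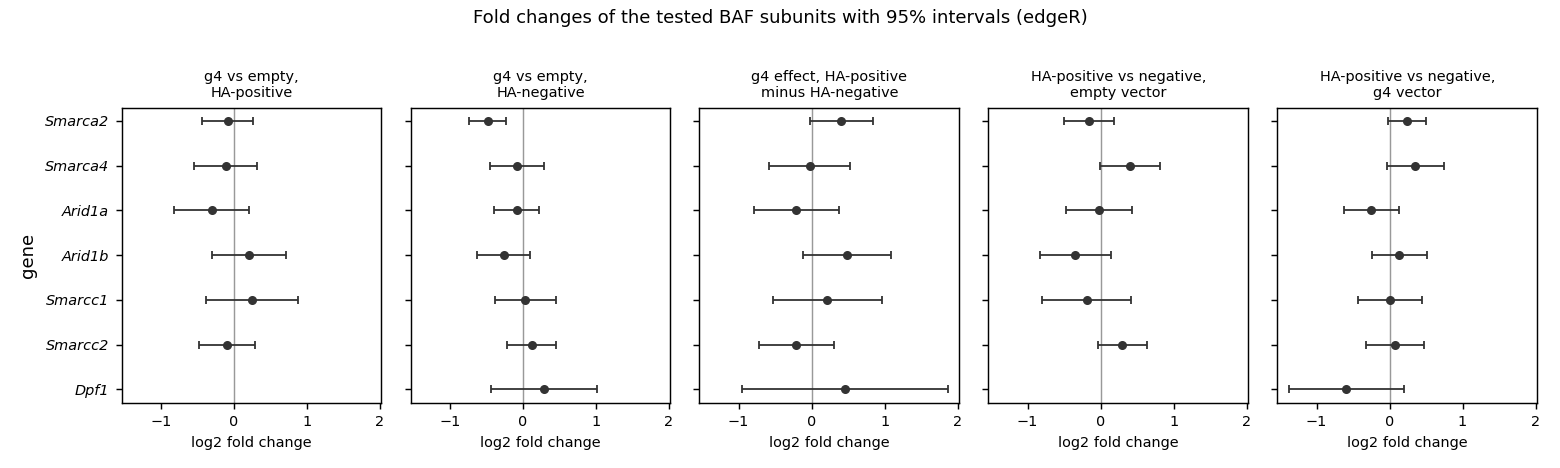
Log2 fold changes (horizontal axes) with 95% intervals of the members that passed the low-count filter, in the 5 comparisons. The interval of Smarca2 with g4 in HA-negative nuclei, -0.73 to -0.23, is the only one that leaves out 0, and 0 members were called in any comparison.

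HA-positive against HA-negative nuclei compares sorted fractions of the same hemisphere. With the empty vector, edgeR called 0 of 6 tested members, against 7.01% of 5538 genes, and with g4 it called 0 of 7, against 6.4% of 6264 genes. DESeq2 and limma voom called 0 members in either. By edgeR 0 members had an unadjusted p under 0.05 (19.2% of all genes with empty, 17.4% with g4). Limma voom gave such a p to 0 of 6 members with empty, beside 1128 of all 5538 genes tested. With g4 limma voom gave such a p to 2 of 7 members, beside 1126 of all 6264 genes tested. Smarca4 had the smallest adjusted p of any member: 0.40 ± 0.20 with empty (edgeR adjusted p = 0.274, 5 of 7 animals higher) and 0.36 ± 0.19 with g4 (6 of 7 animals, adjusted p = 0.343). Smarcc2 had 0.30 ± 0.17 with empty (6 of 7 animals, adjusted p = 0.335) and 0.08 ± 0.20 with g4. Smarca2 had -0.16 ± 0.17 with empty and 0.24 ± 0.13 with g4, where it was higher in 7 of 7 animals (adjusted p = 0.347). Each of these differences lay within what edgeR could not separate from the spread between libraries.

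Arid1b with empty and Dpf1 with g4 had lower values in HA-positive nuclei in every animal, and neither was called. How many of all genes tested did the same was not computed. Arid1b had -0.34 ± 0.24 with empty (lower in 7 of 7 animals, adjusted p = 0.468 by edgeR). With g4 it had 0.13 ± 0.19 and was higher in 4 of 7 animals. Dpf1 had -0.59 ± 0.39 with g4 (lower in 7 of 7 animals, adjusted p = 0.468). With empty, where it was outside the fit, it averaged 8.69 ± 8.62 CPM in HA-positive and 20.1 ± 8.99 CPM in HA-negative nuclei (exact permutation p = 0.0297, adjusted over the 14 tests p = 0.416, lower in 6 of 7 animals). That exact permutation p became 0.233 without the libraries under 10000 genes. It ran from 0.0195 to 0.0952 with an animal left out, and was 0.0671 to 0.0952 without animal 17, 19 or 21. Paired by animal with exact sign flips, the unadjusted p was 0.03125. Actl6a averaged 9.01 ± 19.6 and 7.82 ± 8.18 CPM with empty (exact permutation p = 0.939), and the difference turned to 7.43 CPM lower in HA-positive nuclei without animal 22. Actl6b averaged 11.1 ± 12.4 and 14.1 ± 6.07 CPM with empty (exact permutation p = 0.575), and 12.5 ± 4.92 and 17.5 ± 9.14 CPM with g4 (exact permutation p = 0.223). With g4, Actl6a averaged 5.87 ± 6.52 and 6.78 ± 4.97 CPM (exact permutation p = 0.764). With empty, 5 of 7 tested inhibitory neuron markers were called higher in HA-positive nuclei, and 5 of 5 oligodendrocyte and 4 of 4 microglia markers lower. The summed oligodendrocyte markers ran from 36.4 to 101 CPM in empty HA-positive and from 959 to 1673 CPM in empty HA-negative libraries. The part of cell types in the members' fraction values was not tested.

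The ratio of paired subunits within a library does not depend on scaling between libraries. It is given per kb of exon, with 0.5 counts added to each gene, as a description. On which side of 0 a ratio falls depends on the exon lengths used. Smarcc2 exceeded Smarcc1 in 28 of 28 libraries, with mean log2 ratios from 1.43 ± 0.32 (SD, n = 7) in empty HA-negative to 2.12 ± 0.93 in empty HA-positive libraries. Arid1b was below Arid1a in 26 of 28 libraries, with means from -0.95 ± 0.48 to -0.42 ± 0.39. The Smarca2 to Smarca4 ratio averaged 0.21 ± 0.34 in empty HA-negative libraries, where 6 of 7 were above 0. It averaged -0.18 ± 0.51 in g4 HA-negative, -0.38 ± 0.66 in empty HA-positive and -0.30 ± 0.45 in g4 HA-positive libraries. The empty HA-negative group was thus the only group in which most libraries had more Smarca2 than Smarca4 per kb. The neuronal Actl6b exceeded Actl6a in 20 of 28 libraries, with means from 0.95 ± 2.84 to 1.46 ± 1.92, and the ratio in single libraries ran from -4.38 to 4.11. In empty HA-positive libraries, where Actl6b had 33 counts and Actl6a 34, the log2 ratio of the summed levels was -0.18, opposite in sign to the mean of 0.95. Dpf3 lay below Dpf1 in 27 of 28 libraries. With 3 to 11 Dpf3 counts per group and Actl6a at 0 in 9 libraries, the Dpf and Actl6 ratios depend on the counts added.

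**Figure D4:**
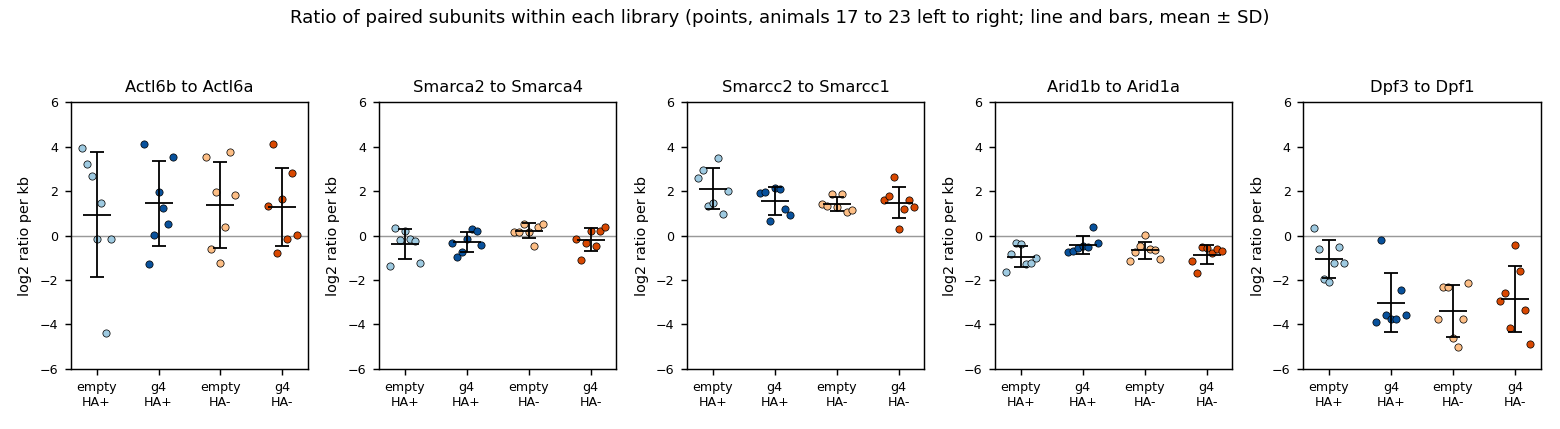
Log2 ratio per kb of exon of the paired subunits within each library (vertical axes), by group. Points are animals 17 to 23 from left to right, with mean ± SD. A value of 0 marks equal levels per kb, which depends on the exon lengths used. Smarcc2 to Smarcc1 lies above 0 in all 28 libraries, while Actl6b to Actl6a runs from -4.38 to 4.11.

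Pairs of members differed in how far they varied together. Over 21 pairs of the 7 members tested in any comparison, the correlation of within-group deviations across the 28 libraries ran from -0.22 to 0.61, with a median of 0.09. The highest were Smarca2 with Arid1b (0.61), Arid1b with Dpf1 (0.57) and Smarca2 with Dpf1 (0.56). These points share libraries and their scaling, and the deviations of Smarca2 and Arid1b also went with the log2 library total (r = 0.42 and 0.47). Among 7197 tested genes, the pattern over the 28 libraries most like that of Smarca2 was that of Trappc3 (r = 0.67), followed by Cherp (0.64) and Usf2 (0.63). For Smarca4 it was Apc (0.71), Rpl4 (0.64) and St8sia1 (0.63), and for Arid1a it was Sbf1 (0.73), Cdh22 (0.70) and Bbs1 (0.69). For Smarcc2 it was Sap130 (0.63), Golgb1 (0.62) and Eef2 (0.59). These genes were picked as the highest of 7197 over 28 libraries, with group differences and library totals not removed. How high the top values run for unrelated genes was not tested, so the list is a description only.

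Of the 18 other BAF subunit genes, 8 to 15 were tested in a comparison, and 0 were called by edgeR, DESeq2 or limma voom in all 5, where edgeR called 0.0% to 7.01% of all genes. By edgeR 1 of them had an unadjusted p under 0.05, in the difference of effects. With g4 in HA-positive nuclei 8 of them were tested, with Smarcd1, a subunit of the core module, at -0.49 ± 0.28 and Pbrm1, of the polybromo-containing complex, at 0.25 ± 0.26. In HA-negative nuclei 15 were tested, with 11 below 0. Ss18l1 (CREST), which replaces Ss18 in neuronal complexes, averaged 28.6 ± 13.6 CPM with g4 and 41.2 ± 15.4 CPM with empty there and was lower in 7 of 7 animals (-0.55 ± 0.32, adjusted p = 0.999 by edgeR). Smarcd1 was at -0.30 ± 0.20. For the difference of effects, 12 of 15 were above 0 with a median of 0.41, beside 0.03 over all genes, and over the same 15 genes the median was 0.27 without the g4 library of animal 19 and 0.32 without the libraries under 10000 genes. Of these, Smarce1 (BAF57) had 1.51 ± 0.65 (adjusted p = 0.924). Its empty HA-positive mean was 8.95 ± 6.97 CPM, and the other groups had means of 26.8 to 27.1 CPM. Bcl7b had 1.16 ± 0.64. Between fractions the smallest p belonged to Brd9 (-0.71 ± 0.49) and Pbrm1 (-0.31 ± 0.25) with empty, and to Ss18l1 (0.53 ± 0.36) and Bcl7b (0.46 ± 0.38) with g4.

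Among 16 ATPases of other remodelling families, 13 to 15 were tested in a comparison. With empty, 1 of 14 was called between fractions, a share near the 7.01% of all genes, and 0 were called in the other comparisons. Chd5, a CHD remodeller known for expression in neurons, averaged 193 ± 37.4 CPM in empty HA-positive and 137 ± 22.2 CPM in empty HA-negative libraries, with every one of 7 animals higher (0.55 ± 0.17; edgeR adjusted p = 0.0454). The call was lost with the animal as a block (adjusted p = 0.0845), with RLE size factors (0.0514) and without a low-count filter (0.136). It was also lost when any of animals 17, 19, 20, 21, 22 and 23 was left out (adjusted p = 0.051 to 0.171, with log2 fold changes of 0.46 to 0.62). It held by DESeq2 (0.0247), limma voom (0.0402), in the joint fit (0.0252), without technical RNA (0.0483), without animal 18 (0.0394) and without the libraries under 10000 genes (0.0332). Atrx had -0.29 ± 0.14 in the same comparison. With g4, the fractions differed most by p for Srcap (-0.39 ± 0.18) and Chd1 (-0.74 ± 0.37), neither called. For g4 against empty, Chd3 (0.29 ± 0.24) and Chd6 (-0.24 ± 0.21) led in HA-positive nuclei, and Atrx (-0.21 ± 0.11) and Chd5 (0.23 ± 0.15) in HA-negative nuclei, none called. For the difference of effects it was Chd7, with 1 count in all empty HA-positive and 17 in all g4 HA-positive libraries (adjusted p = 0.924), and Chd5 (-0.35 ± 0.23).

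The REST repressor, its corepressors and the small phosphatases form the other arm of the circuit around miR-124, and 4 to 7 of these 11 genes were tested in a comparison. EdgeR, DESeq2 and limma voom called 0 of them. With g4 in HA-positive nuclei Hdac2, a histone deacetylase, averaged 42.1 ± 12.3 CPM against 67.4 ± 36.7 CPM with empty (-0.75 ± 0.35, lower in 6 of 7 animals, adjusted p = 0.730 by edgeR), and the histone demethylase Kdm1a had 0.73 ± 0.41. In HA-negative nuclei Rcor1 had -0.40 ± 0.40 and the small phosphatase gene Ctdsp2 -0.26 ± 0.27. The difference of effects was -0.72 ± 0.41 for Hdac2 and 0.64 ± 0.51 for Kdm1a. Between fractions, Ctdsp2 (-0.64 ± 0.40) and Hdac2 (0.49 ± 0.32) led with empty, and Sin3a (-0.54 ± 0.35) and Kdm1a (0.35 ± 0.32) with g4.

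**Figure D5:**
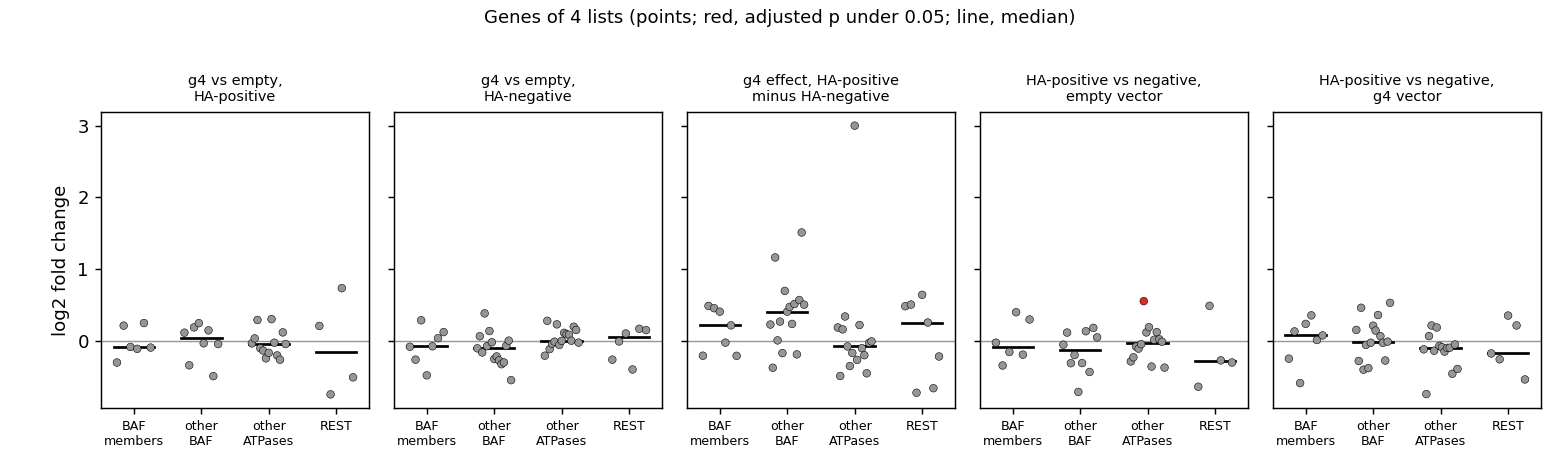
Log2 fold change (vertical axis) of each tested gene of the members and of 3 further lists in the 5 comparisons, with the median of each list as a line; red marks an adjusted p under 0.05. The only red point is Chd5, at 0.55 in HA-positive against HA-negative nuclei with the empty vector.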

How the data were processed

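Nuclear RNA of 28 libraries was analysed from the raw counts per gene that the authors deposited, 1 table per sorted fraction. Every value is a whole number, no cell holds a 0, and cells without a value were taken as 0. The tables have 41550 entries; the 1 without a gene name held no value and was left out. Library kits were fed 40 to 2000 pg of RNA, per the labels' protocols. Build GRCm38 is named in the submitters' processing notes; for the aligner, counter, strand setting and annotation, the sources used here give nothing. Groups and animals came from sample titles, and columns from descriptions, since for 3 animals the title number is 1 lower than the column number. The replicates are mice. The main tests have no term for the animal, so their p-values measure the spread between libraries of a group, with the pairing by mouse left out.

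Genes were tested in 5 comparisons with edgeR 4.0.16 (filterByExpr by group, TMM, robust quasi-likelihood fit, two-sided) in R 4.3.3, with Benjamini-Hochberg adjustment over all genes tested and calls under 0.05. Standard errors and 95% intervals come from the fit. CPM used TMM factors over all 28 libraries. Members outside a fit were compared by exact permutation, and the alternatives for these tests were chosen after seeing the data. Limits for a count of 0 cover counting error only, while the intervals of the fit take in the spread between libraries. Alternatives were DESeq2 1.42.0, limma 3.58.1 voom, RLE factors, no filter, a joint fit, removal of 396 ribosomal, 7SK, 7SL and mitochondrial genes, and leaving out libraries or animals. On simulated counts, genes changed by 1 log2 unit were called in 45.4% of cases for g4 in HA-positive and 52% in HA-negative nuclei. The share was 20.8% for the difference of effects, and between fractions 39.3% with empty and 53.9% with g4. So 0 calls alone do not exclude changes of that size. Gene positions and 3' UTRs came from GENCODE M21, in which 41474 gene identifiers matched. Groups share an animal by design, so the animal was used as a block in an alternative. Deviations of same-animal libraries from their group means correlated by -0.0998 to 0.131 over the 4 two-group comparisons. The members and lists were chosen with earlier results of these data known. The text names all members, every called gene of the other lists, the 2 genes of each list with the smallest p, and the 3 genes most like each member with a mean of at least 100 CPM.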

Additional observations from a re-analysis of the deposited data

Results flagged for a closer look

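In 40 groups of 7 libraries (10 members in 4 groups), Dixon's test at 95% marked 3 highest libraries as far from the rest. For normally distributed values chance marks about 1 in 20 groups. That rate does not apply to the 3 marked groups, in which 4 or 5 of the 7 libraries had 0 counts. Actl6a in the empty HA-positive library of animal 22 was at 52.9 CPM from 28 counts, and the next highest library of that group was at 8.14 CPM. Dpf3 in the empty HA-positive library of animal 18 was at 10.3 CPM from 5 counts, with the next at 3.78 CPM. Dpf3 in the g4 HA-positive library of animal 18 was at 15.3 CPM from 6 counts, with the next at 2.48 CPM. All 3 libraries are HA-positive, and 2 of them (empty animal 22 and g4 animal 18) are among those with fewer than 10000 genes detected.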

How the results depend on the processing

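The 33 fold changes of members gave 498 values under the alternatives, of which 0 were called by any tool (smallest adjusted p 0.172), and 20 had the opposite sign, none larger than 0.188 in size. The block by animal ended the call of Chd5 (adjusted p = 0.0845 by edgeR) and changed no call of a member, where Smarca2 in HA-negative nuclei had an adjusted p of 0.656. The number of all genes called for g4 in HA-positive nuclei was 3, and 28 without a low-count filter, 11 by DESeq2, 1 by limma voom, 1 with the animal as a block, 0 without the libraries under 10000 genes, 5 without the g4 library of animal 19, 8 in the joint fit and 1 to 4 with an animal left out (1 without animal 18). It was 1 by DESeq2 in HA-negative nuclei, and 3 without a filter for the difference of effects. Between fractions with empty it was 388, and 661 without a filter, 612 in the joint fit and 251 to 371 with an animal left out (251 without animal 19). With empty it was also 500 by DESeq2, 376 by limma voom and 489 without the libraries under 10000 genes. With g4 it was 401, and 218 to 422 with an animal left out (218, 224 and 241 without 20, 21 and 22). With g4 it was also 507 without the g4 library of animal 19, 456 by DESeq2, 331 by limma voom and 378 without the libraries under 10000 genes. The causes were not tested.

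Without the libraries under 10000 genes, signs turned for Actl6a (2.18 CPM for g4 in HA-positive nuclei and -5.28 CPM between fractions with empty), Dpf3 (-2.97 CPM for g4 in HA-positive nuclei), the difference of effects of Arid1a (0.055) and Dpf1 (-0.18), and Chd6 for g4 in HA-positive nuclei (0.074). Without the g4 library of animal 19 they turned for Dpf3 (0.0923 CPM) and Smarcc1 (-0.079) between fractions with g4, Dpf3 also with library totals (0.232 CPM). Limma voom turned Smarcc1 with g4 in HA-negative nuclei (-0.0062) and the difference of effects of Smarca4 (0.070, and 0.0030 without a filter). Leaving out 1 animal turned signs in these ranges. For g4 in HA-positive nuclei they were -6.39 to 3.91 CPM for Actl6a, -0.885 to 5.88 for Actl6b and -0.759 to 0.626 for Dpf3, and in log2 -0.16 to 0.015 for Smarca2, -0.27 to 0.0014 for Smarca4 and -0.032 to 0.39 for Chd3. In HA-negative nuclei they were -3.18 to 0.974 CPM for Actl6a and -0.020 to 0.12 for Smarcc1. For the difference of effects they were -0.43 to 0.052 for Arid1a and -0.14 to 0.022 for Smarca4. Between fractions with empty they were -7.43 to 4.36 CPM for Actl6a, -7.03 to 0.472 CPM for Actl6b and -0.20 to 0.057 for Arid1a. With g4 they were -3.18 to 0.868 CPM for Actl6a, -2.42 to 1.19 CPM for Dpf3, -0.19 to 0.095 for Smarcc1 and -0.15 to 0.21 for Smarcc2. Few counts limit Actl6a, Actl6b and Dpf3, which did not pass the low-count filter with all libraries in any comparison.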
